A study of Mus musculus with 24 samples.

Results

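The 42 genes described here are a set of G2 and mitosis genes, taken by symbol for their known function, out of 56748 genes in a count table of mouse haematopoietic stem and progenitor cells. All 42 symbols were found in the table, each on 1 row, and 41 passed the filter on low counts and were tested. Prc1, a microtubule crosslinker of the central spindle, was listed at 0 in all 24 libraries. Whether the counting step left it out is not known here, so the 0 does not show that it is not expressed. RNA was sequenced from 12 libraries labelled KO and 12 labelled WT, 3 of each genotype in each of 4 sorted populations: the stem cells of the blood (HSC) and 3 groups of multipotent progenitors, MPP1, MPP2 and MPP4. The cells were sorted from bone marrow, while the tissue field reads blood, and tamoxifen is given as the treatment of every group, WT included. The labels name neither the gene knocked out, nor a Cre driver, a strain, an age or a sex, and they leave unsaid whether replicates are separate animals, so the p-values measure only how far these libraries differ, a spread that may be technical. From the title on P-bodies, cytoplasmic granules of untranslated RNA, the comparison asks how the deleted gene bears on the transcriptome of these cells.

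Cells that leave G1 copy their DNA and then switch on a late programme that builds the mitotic spindle, condenses the chromosomes and splits the cell. Cyclin A2 and the B cyclins activate Cdk1, the kinases Plk1 and the Aurora kinases drive entry and spindle assembly, a checkpoint holds anaphase until each kinetochore is attached, and the anaphase-promoting complex then removes the cyclins. In bone marrow most stem cells are quiescent and carry little of these transcripts, while multipotent progenitors divide more often, so that the programme is widely read as a measure of cycling cells. The genes are transcribed late in the cycle. The DREAM, MYB-MuvB and FOXM1 complexes control them at CHR elements close to the start site. CCAAT boxes nearby are bound by NF-Y. In sorted bulk samples, fewer cells in G2 or mitosis and less of these RNAs in each such cell cannot be told apart.

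Library totals ran from 2540511 to 3807003 counts. Levels are CPM, counts scaled to a common library size by the trimmed mean of M-values, and the 42 genes together took 0.169 to 0.564% of the counts of a library. The deposited counts include reads in genes that blood cells are not known to use: from the counts over 1969 olfactory and vomeronasal receptor genes, a background spread evenly over gene spans was estimated at 4.03 to 4.45% of the counts in KO-labelled HSC libraries against 17.7 to 19.8% in WT HSC libraries. It was 11.4 to 11.7% in KO-labelled and 19.7 to 21.1% in WT MPP1, 7.07 to 7.92% in KO-labelled and 9.63 to 9.85% in WT MPP2, and 14.8 to 15.1% in KO-labelled and 25.7% in WT MPP4. Since it differed between the genotypes, the number of the 42 genes called in each comparison is also given after this background was subtracted. Ddx6, a P-body helicase taken as the likely target from general knowledge of the study and not from the labels, was not lower in the KO-labelled libraries: it averaged 76.0 ± 15.2 CPM in KO-labelled HSC and 62.1 ± 6.17 CPM in WT HSC (SD, n = 3 each), and was called higher in MPP1, at 89.4 CPM in KO-labelled and 58.7 CPM in WT libraries (adjusted p = 0.0211, edgeR). The deleted exons are not known here, so the libraries are called KO-labelled. Flt3, which marks MPP4 in the usual sorting scheme, averaged 543 CPM in KO-labelled and 1138 CPM in WT libraries labelled MPP2, but 84.5 CPM in KO-labelled and 64.9 CPM in WT libraries labelled MPP4. Slamf1, which marks MPP2, averaged 4.78 CPM in KO-labelled and 7.86 CPM in WT libraries labelled MPP2, and 87.5 CPM in KO-labelled and 41.1 CPM in WT libraries labelled MPP4. The markers thus go against these population labels, so MPP2 and MPP4 below mean the libraries that carry those labels. Flt3 was not high in MPP2 alone, since it averaged 578 CPM in KO-labelled and 424 CPM in WT libraries labelled MPP1.

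The members differed widely in abundance. Per kb of exon, on the exon lengths of the GRCm38 annotation, Mki67, the gene of the proliferation antigen Ki-67, had the highest mean level in KO-labelled HSC at 121 CPM per kb against 46.7 CPM per kb in WT HSC. Plk1, the polo-like kinase of mitotic entry, came next at 68.1 CPM per kb in KO-labelled HSC and 17.8 CPM per kb in WT HSC. Ncapg, a condensin subunit, stood at the other end with 2.42 CPM per kb in KO-labelled HSC and 1.04 CPM per kb in WT HSC. Raw counts were low for Birc5, the survivin subunit of the chromosomal passenger complex, at 9 to 48 counts over the 24 libraries, and for Ccnb1, cyclin B1, at 17 to 82 counts, so fold changes of these genes carry wide errors. On the GRCm38 annotation, exons of another gene on the opposite strand cover 29.3% of the exon bases of Kif20a, 22.8% of Ube2c and 15.1% of Kif4, and 7.09 to 13.4% of Ccna2, Cdc25c, Ncapg, Plk1 and Prc1. The strand setting of the counting is not given in the sources used here, so reads of those neighbours cannot be told apart from reads of these genes.

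The members share promoter elements that the choice of the set did not use. RefSeq promoter windows of 300 bases, 250 before and 50 after the start site on GRCm38.p6, were matched for 34 of the 42 genes. The CHR core TTTGAA, searched on both strands, was present in 26 of the 34 windows (76.5%), against 18.1% of the windows of all 27025 genes with a window of that length. The box CCAAT, searched on both strands and with overlaps allowed, was also present in 26 of the 34 (76.5%), against 37.9% of all, and both motifs in 22 (64.7%), against 7.12% of all. A match is a run of letters and not a measured binding site. The 160 bases before the start site are printed 5′ to 3′ on the coding strand for 6 of the genes named below. Every match to either motif is in capitals, to show how differently the shared elements are laid out.
Mki67 promoter, chr7:135716380-135716539, - strand: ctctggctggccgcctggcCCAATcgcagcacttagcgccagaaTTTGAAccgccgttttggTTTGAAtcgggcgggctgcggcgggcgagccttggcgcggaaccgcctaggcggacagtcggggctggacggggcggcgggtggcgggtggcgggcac
Top2a promoter, chr11:99024190-99024349, - strand: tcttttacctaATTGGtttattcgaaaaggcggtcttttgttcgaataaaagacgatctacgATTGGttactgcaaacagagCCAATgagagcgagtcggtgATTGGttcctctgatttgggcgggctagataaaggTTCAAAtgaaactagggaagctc
Plk1 promoter, chr7:122159275-122159434, + strand: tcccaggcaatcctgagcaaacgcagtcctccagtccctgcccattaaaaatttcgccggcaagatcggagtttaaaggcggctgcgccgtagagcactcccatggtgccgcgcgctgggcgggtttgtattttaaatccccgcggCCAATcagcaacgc
Kif11 promoter, chr19:37376222-37376381, + strand: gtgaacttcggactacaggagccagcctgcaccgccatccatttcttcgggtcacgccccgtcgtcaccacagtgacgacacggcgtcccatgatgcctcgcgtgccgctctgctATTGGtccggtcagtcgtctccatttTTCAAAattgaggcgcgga
Hmmr promoter, chr11:40733438-40733597, - strand: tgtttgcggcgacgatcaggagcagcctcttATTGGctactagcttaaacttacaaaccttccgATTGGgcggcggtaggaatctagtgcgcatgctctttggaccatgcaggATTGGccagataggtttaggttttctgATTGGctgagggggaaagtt
Ncapd2 promoter, chr6:125191587-125191746, - strand: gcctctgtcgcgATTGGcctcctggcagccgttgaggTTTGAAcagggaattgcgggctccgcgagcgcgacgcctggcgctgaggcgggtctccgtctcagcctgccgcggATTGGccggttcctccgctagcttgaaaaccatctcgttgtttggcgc
The Mki67 stretch holds 1 CCAAT followed by 2 TTTGAA, and that of Top2a holds 4 CCAAT boxes in both orientations before 1 TTTGAA read on the opposite strand. The Hmmr stretch has 4 CCAAT boxes and the Plk1 stretch 1, neither with TTTGAA among these 160 bases. Of the genes not printed, Anln held neither motif in this stretch. Smc2 held both, and Bub1, Cenpa, Kif4, Cdc25b and Aurka held only CCAAT boxes in this stretch. Over the windows of 300 bases, Plk1, Hmmr, Cenpa, Kif4 and Aurka each had 1 match to TTTGAA and Anln had 2. None of these matches lay within the 250 bases before the start site. Bub1 and Cdc25b had 0 matches to TTTGAA in their windows.

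**Figure D1:**
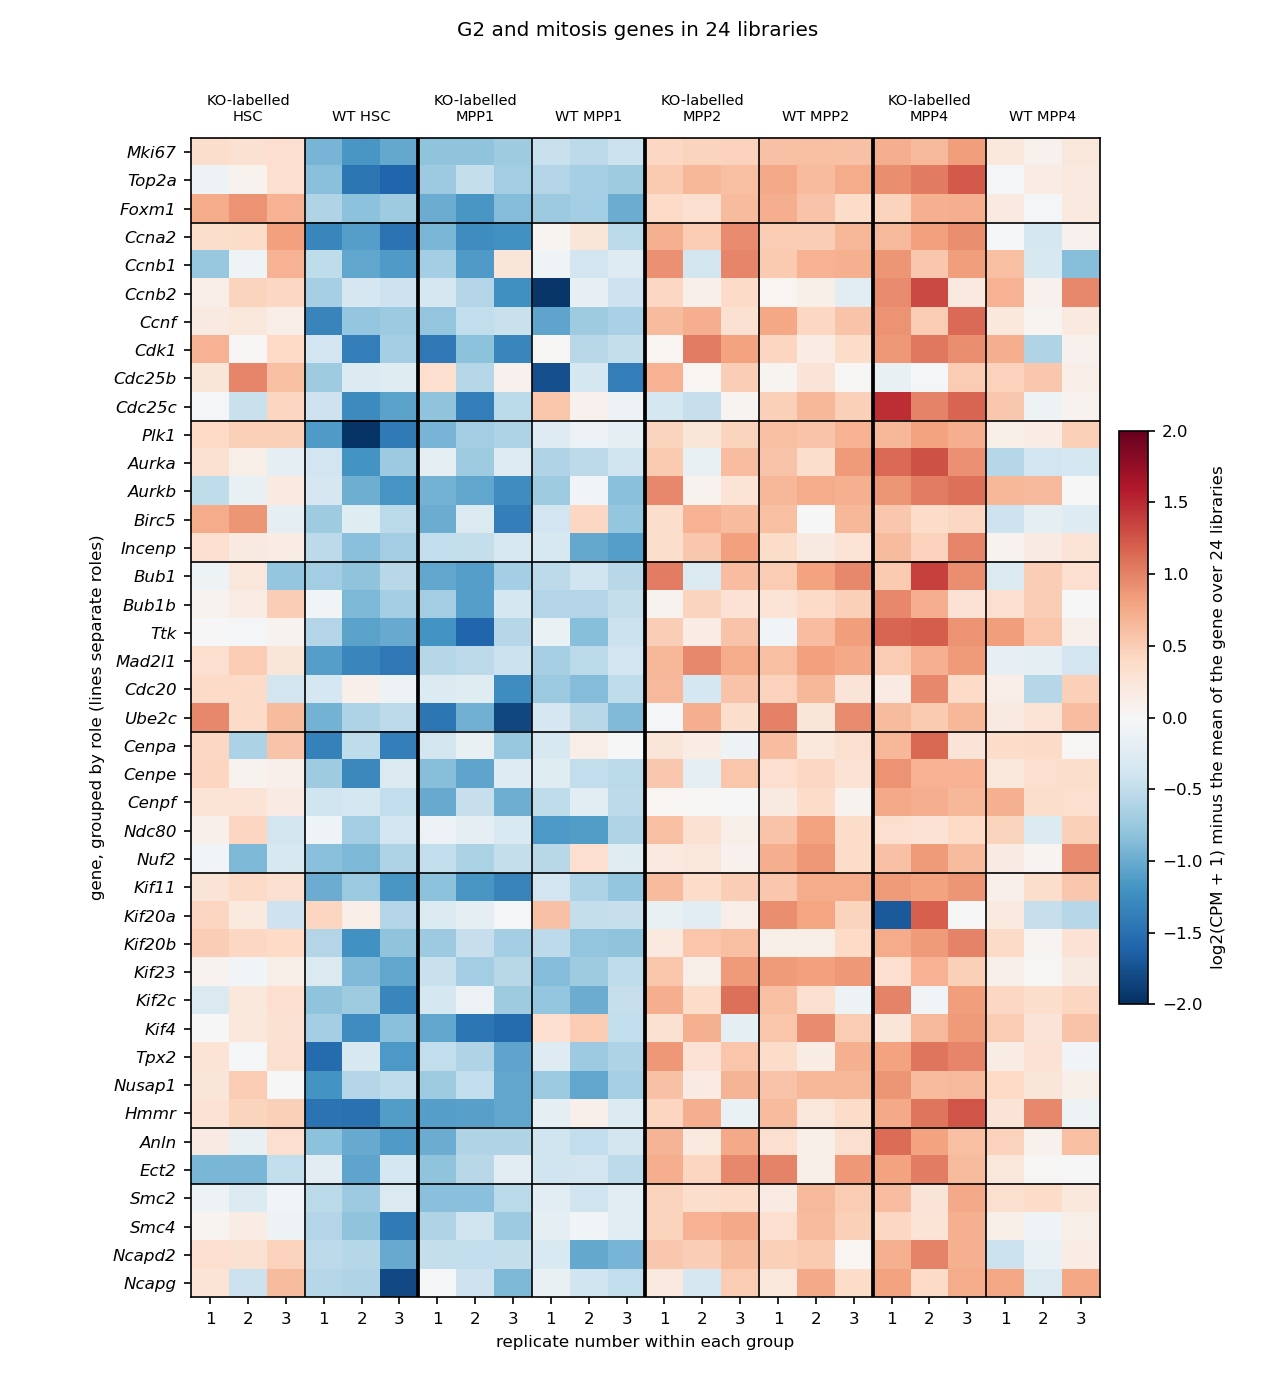
Level of the 41 tested G2 and mitosis genes (rows, grouped by role) in each of the 24 libraries (columns, 3 per group), as log2(CPM + 1) minus the mean of the gene over all libraries. Most rows are low in KO-labelled MPP1 and in WT HSC and high in KO-labelled MPP4 and in both MPP2 groups; the summed level averaged 1888 CPM in KO-labelled MPP1, 5308 CPM in KO-labelled MPP4 and 1657 CPM in WT HSC.

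In stem cells, the G2 and mitosis genes were higher in the KO-labelled libraries. Of the 41 tested, 29 rose, 0 fell and 12 were not called, where 18.3% of all 21964 genes tested were called higher and 24.8% lower (edgeR's quasi-likelihood test, adjusted p below 0.05 over all genes). The summed level of the set was 3746 ± 66.5 CPM in KO-labelled HSC and 1657 ± 123 CPM in WT HSC (SD, n = 3 each). Mki67 alone gave 1215 and 470 CPM of these sums. Without it they were 2481 to 2586 CPM in KO-labelled HSC and 1128 to 1293 CPM in WT HSC. The median log2 fold change of the 41 genes was 1.07, beside -0.31 for all genes tested; since that whole-table median includes many low genes, the 34 members of at least 20 CPM are set beside the 8510 genes of that level, with medians of 1.08 and 0.44 and with 28 of the 34 called higher against 43.5% of those genes. In 31 of the 41 genes each KO-labelled library lay above each WT library, which held for 23.1% of all genes.

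Mki67 (ENSMUSG00000031004) had 1229, 1195 and 1222 CPM in KO-labelled HSC, against 505, 432 and 473 CPM in WT HSC. The groups were far apart beside their own spread, with a log2 fold change of 1.37 ± 0.07 (SE; adjusted p = 3.22e-20, edgeR). Top2a (ENSMUSG00000020914), the topoisomerase that untangles sister chromatids, had 152, 171 and 206 CPM in KO-labelled HSC, against 90.9, 59.4 and 53.7 CPM in WT HSC. The groups did not overlap, and it rose by 1.37 on the log2 scale (adjusted p = 2.9e-10, edgeR). Foxm1 (ENSMUSG00000001517), the transcription factor that acts on many of the other members, had 159, 177 and 153 CPM in KO-labelled HSC, against 61.5, 52.5 and 56.9 CPM in WT HSC, again with no overlap. Its log2 fold change was 1.51 ± 0.16 (SE; adjusted p = 1.45e-10, edgeR), so that each of the 3 genes of the proliferation class was called.

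Among the cyclins, Cdk1 and the Cdc25 phosphatases, 4 of 7 rose. Ccna2 (ENSMUSG00000027715), cyclin A2, had 53.3, 53.4 and 73.6 CPM in KO-labelled HSC, against 16.1, 18.8 and 14.3 CPM in WT HSC. Its lowest KO-labelled library was well above the highest WT library, and the log2 fold change was 1.87 ± 0.25 (SE; adjusted p = 5.46e-08, edgeR). Ccnf, cyclin F, rose by 1.12, Cdk1, the kinase that triggers mitosis, by 1.20 and Cdc25b, a phosphatase that activates it, by 1.08 on the log2 scale, although the call on Cdc25b was lost without WT HSC replicate 1 (adjusted p = 0.0809) or KO HSC replicate 2 (adjusted p = 0.0977, edgeR). The 3 not called also had positive estimates: Ccnb1 1.05 ± 0.50, Ccnb2 0.86 ± 0.41 and Cdc25c 0.99 ± 0.42 (log2 fold change, SE), at mean levels of 12.6, 20.96 and 13.9 CPM in KO-labelled HSC.

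Of the mitotic kinases and the passenger complex, 3 of 5 rose. Plk1 (ENSMUSG00000030867) had 144, 153 and 153 CPM in KO-labelled HSC, against 49.6, 27.3 and 40.6 CPM in WT HSC. That is 3.83-fold, the largest rise among the 41 genes on the deposited counts, with a log2 fold change of 1.94 ± 0.16 (SE; adjusted p = 5.18e-13). After background subtraction it was 1.45, below the estimates for Kif4, Hmmr and Ncapg. Aurka (ENSMUSG00000027496), the centrosomal Aurora kinase, had 60.98, 53.4 and 42.6 CPM in KO-labelled HSC, against 37.4, 20.96 and 29.1 CPM in WT HSC, and rose by 0.84 (adjusted p = 0.00405, edgeR). The groups did not overlap but lay close. Incenp, the scaffold of the passenger complex, rose by 0.91, while its partners Aurkb (0.69 ± 0.30, SE) and Birc5 (1.15 ± 0.52) were not called.

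Of the 6 genes of the spindle checkpoint and of anaphase promotion, 4 rose. The checkpoint effector Mad2l1 had 88.2, 98.98 and 82.1 CPM in KO-labelled HSC, against 31.6, 27.3 and 25.1 CPM in WT HSC. Its groups did not overlap and its log2 fold change was 1.68 ± 0.18 (SE; adjusted p = 3.17e-10, edgeR). Ube2c, the ubiquitin-conjugating enzyme of the anaphase-promoting complex, rose by 1.39, the checkpoint kinase Ttk by 0.94 and Bub1b by 0.77 on the log2 scale. Bub1 (ENSMUSG00000027379), a checkpoint kinase at the kinetochore, was not called, with 18.8, 23.98 and 11.4 CPM in KO-labelled HSC and 12.2, 11.1 and 13.4 CPM in WT HSC. Its groups overlapped, as did those of Cdc20, the activator that the checkpoint restrains.

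Of the 5 kinetochore genes, 3 rose. Cenpa (ENSMUSG00000029177), the histone H3 variant that marks centromeres, had 70.04, 33.4 and 78.03 CPM in KO-labelled HSC, against 19.9, 36.6 and 19.7 CPM in WT HSC. KO-labelled replicate 2 lay within the WT range, and the log2 fold change of 1.25 ± 0.27 (SE) was nevertheless called (adjusted p = 0.000278, edgeR). The kinetochore motor Cenpe rose by 0.94 and the corona protein Cenpf by 0.65, while Ndc80 (0.47 ± 0.30, SE) and Nuf2 (0.42 ± 0.31), which together hold the microtubule end, were not called. Of the 9 tested kinesins and spindle proteins, 8 rose. Kif11 (ENSMUSG00000012443), the motor that pushes the spindle poles apart, had 119, 129 and 124 CPM in KO-labelled HSC, against 49.3, 58.6 and 43.7 CPM in WT HSC. The groups did not overlap and it rose by 1.29 (adjusted p = 1.25e-08, edgeR). Hmmr (ENSMUSG00000020330), a spindle-pole protein, had 47.7, 53.7 and 54.3 CPM in KO-labelled HSC, against 13.3, 13.3 and 17.4 CPM in WT HSC, which is 3.54-fold. Tpx2, Nusap1, Kif20b, Kif23, Kif2c and Kif4 rose by 0.76 to 1.30 on the log2 scale, and Kif20a, at 0.06 ± 0.48 (SE), was not called.

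Of the 2 cytokinesis genes, Anln (ENSMUSG00000036777), the ring scaffold anillin, had 85.4, 68.6 and 96.4 CPM in KO-labelled HSC, against 42.7, 37.7 and 34.3 CPM in WT HSC. It rose by 1.13 with no overlap (adjusted p = 7.63e-06, edgeR). Ect2, the RhoA exchange factor that positions the furrow, was the member with a negative estimate: it had 25.8, 25.7 and 34.8 CPM in KO-labelled HSC, against 42.1, 23.3 and 38.3 CPM in WT HSC, overlapping groups with a log2 fold change of -0.26 ± 0.25 (SE) that was not called. Of the 4 condensin genes, 3 rose. Ncapd2 (ENSMUSG00000038252), a subunit of condensin I, had 159, 154 and 173 CPM in KO-labelled HSC, against 86.4, 84.1 and 61.4 CPM in WT HSC, with no overlap and a rise of 1.07 (adjusted p = 1.96e-06, edgeR). The ATPase Smc2 (ENSMUSG00000028312) had 52.6, 46.6 and 54.3 CPM in KO-labelled HSC, against 38.5, 33.7 and 46.00 CPM in WT HSC, and was not called although its groups did not overlap, while its partner Smc4 rose by 0.94.

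After background subtraction, 14 of the 41 genes were called higher and 0 lower in KO-labelled HSC, where 4.60% of all genes tested were called higher, with a median log2 fold change of 0.78 for the set and -0.19 for all genes. The 14 were Mki67, Plk1, Foxm1, Top2a, Mad2l1, Kif11, Ccna2, Hmmr, Kif20b, Ncapd2, Anln, Ccnf, Ube2c and Kif4; Aurka (0.39) and Cenpa (0.78) were among those no longer called. By role, the 14 were 3 of 3 proliferation genes, 2 of 7 in the cyclin class, 1 of 5 in the kinase class, 2 of 6 in the checkpoint class and 0 of 5 at the kinetochore. The others were 4 of 9 tested kinesins and spindle proteins, 1 of 2 cytokinesis genes and 1 of 4 condensin genes. The share of counts that the estimate assigns to background was 0.109% for Mki67 in KO-labelled HSC and 0.895% in WT HSC, but up to 9.78% (Ect2) among members in KO-labelled HSC and up to 65.1% (Ncapg) in WT HSC. The 3 proliferation genes, Mki67 among them, had log2 fold changes of 1.37 to 1.51 on the deposited counts and 0.84 to 1.02 after subtraction. Library scaling was estimated anew on the subtracted counts, and its part in this shift was not tested. The summed level of 8 stem cell markers also differed, at 8596 to 8835 CPM in KO-labelled HSC and 4161 to 4302 CPM in WT HSC, with 4 of 7 tested called higher, 1 lower and Hoxb5 at 0 (2 higher and 1 lower after background subtraction). That of 12 erythroid markers, none at 0, was 141 to 164 CPM in KO-labelled HSC and 205 to 209 CPM in WT HSC, with 2 called higher and 7 lower (0 and 7 after background subtraction). The part of either in the rise was not tested.

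**Figure D2:**
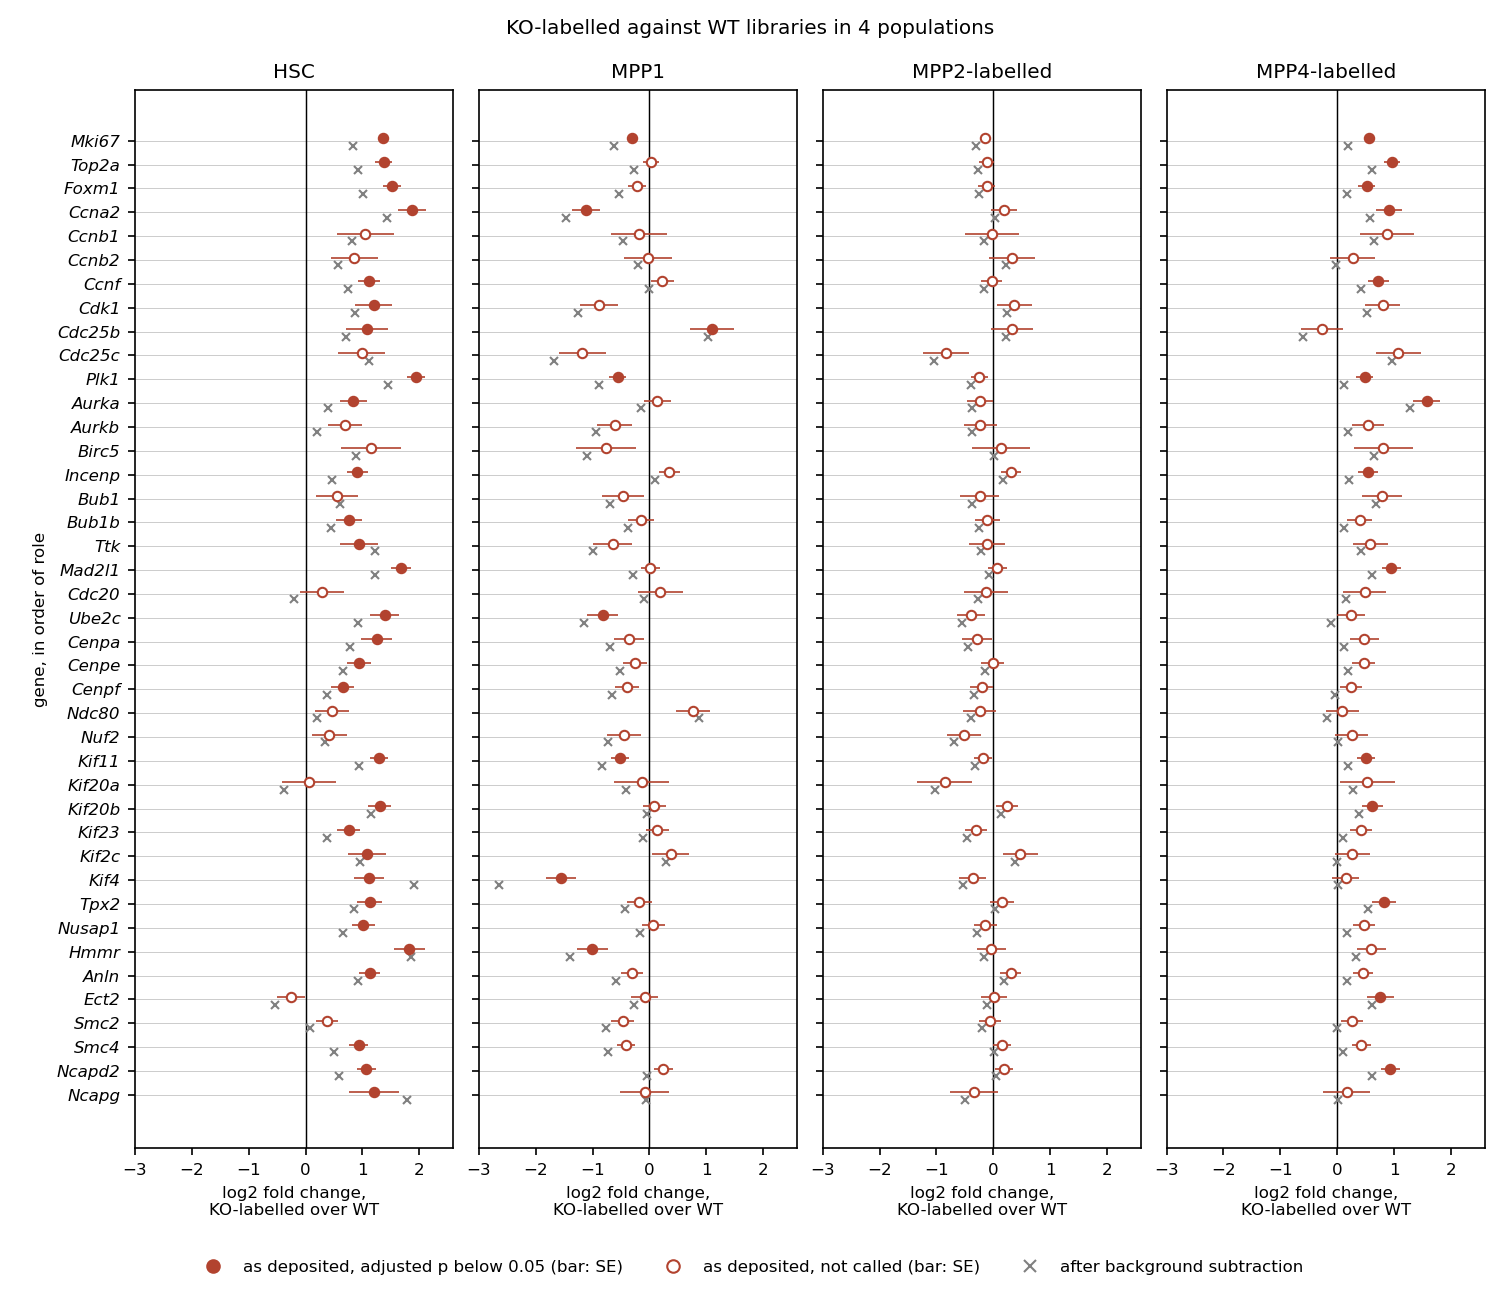
Log2 fold change of KO-labelled over WT libraries for each of the 41 genes (rows, in order of role) in HSC, MPP1, MPP2 and MPP4; circles are the deposited counts (filled where the adjusted p was below 0.05, bars SE) and crosses the estimate after background subtraction. Filled circles number 29 in HSC, 8 in MPP1, 0 in MPP2 and 14 in MPP4, and the crosses lie mostly to the left of the circles.

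In MPP1, 7 of the 8 called genes were lower in the KO-labelled libraries. 1 rose and 33 of the 41 tested were not called, where 4.90% of all genes were called lower and 8.71% higher (edgeR). The summed level was 1888 ± 26.8 CPM in KO-labelled MPP1 and 2232 ± 73.0 CPM in WT MPP1 (SD, n = 3 each), and the median log2 fold change was -0.22, beside -0.10 for all genes. Without Mki67 the sums were 1307 to 1331 CPM in KO-labelled MPP1 and 1448 to 1599 CPM in WT MPP1. Among genes of at least 20 CPM the medians were -0.28 for the 34 members, with 7 called lower, and 0.23 for all, with 9.11% called lower. Each KO-labelled library lay below each WT library in 14 of the 41 genes, against 17.8% of all genes, and above in 1, Ndc80, against 17.3%.

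Kif4 (ENSMUSG00000034311), a chromosome-arm kinesin, had 22.7, 16.9 and 15.8 CPM in KO-labelled MPP1, against 60.6, 68.4 and 33.6 CPM in WT MPP1. It fell by 1.55 on the log2 scale without overlap (SE 0.26, adjusted p = 2.49e-05, edgeR). Background was estimated at 60.3% of its counts in KO-labelled MPP1 and 31.8% in WT MPP1. After background subtraction Kif4 was still called, with the lowest estimate of the set, at -2.64. Ccna2 had 21.4, 16.9 and 17.2 CPM in KO-labelled MPP1, against 43.2, 49.3 and 28.3 CPM in WT MPP1, a log2 fold change of -1.12 ± 0.24 (SE; adjusted p = 0.000914, edgeR). These groups did not overlap, and WT replicate 3 was the lowest of its group for both genes. Hmmr had 17.7, 17.8 and 18.4 CPM in KO-labelled MPP1, against 34.1, 41.9 and 32.2 CPM in WT MPP1, and fell by 1.00 (adjusted p = 0.00752, edgeR). Mki67 had 555, 554 and 591 CPM in KO-labelled MPP1, against 708, 670.1 and 714 CPM in WT MPP1; the groups were separate though the difference was small, at -0.30 ± 0.07 (SE; adjusted p = 0.00105, edgeR).

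The other falls were Plk1 at -0.56 ± 0.16, Ube2c at -0.82 ± 0.27 and Kif11 at -0.52 ± 0.16 (log2 fold change, SE). Plk1 had 57.2, 67.5 and 70.7 CPM in KO-labelled MPP1, against 90.9, 101 and 96.3 CPM in WT MPP1, with no overlap. Cdc25b (ENSMUSG00000027330) was the gene that rose, with 24.4, 12.6 and 20.5 CPM in KO-labelled MPP1, against 4.998, 14.8 and 6.72 CPM in WT MPP1. Its groups overlapped, its log2 fold change was 1.11 ± 0.39 (SE; adjusted p = 0.0486, edgeR), and the call was lost without WT MPP1 replicate 1 or 3 or KO MPP1 replicate 1 or 3 (adjusted p of 0.124 to 0.257). Top2a, with 97.6, 117 and 101 CPM in KO-labelled MPP1 and 108, 103 and 99.7 CPM in WT MPP1, overlapped (0.03 ± 0.14, SE), as did Foxm1, Aurka, Ncapd2 and Cenpa.

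Without WT MPP1 replicate 2 the number of falls was 3, with Plk1, Hmmr and Kif11 among those no longer called (adjusted p of 0.0526 to 0.0541), and Kif11 also lost its call without WT MPP1 replicate 1 or KO MPP1 replicate 2 or 3 and Plk1 without KO MPP1 replicate 1. After background subtraction 10 fell and 0 rose, where 2.82% of all genes were called lower, with a median of -0.52 for the set and -0.08 for all genes; the 3 added were Foxm1 (-0.53), Smc2 (-0.77) and Smc4 (-0.73). Erythroid markers moved with the set: the sum of 12, none at 0, was 103 to 146 CPM in KO-labelled MPP1 and 920.4 to 956 CPM in WT MPP1, with 10 of 12 called lower. The sum of 8 lymphoid-primed markers was 1234 to 1342 CPM in KO-labelled MPP1 and 674 to 704 CPM in WT MPP1, with 5 of 6 tested called higher and Rag1 and Rag2 at 0. Myeloid markers summed to 150.4 to 167 CPM in KO-labelled MPP1 and 300.4 to 349.6 CPM in WT MPP1, with 4 of 8 called lower (5 after background subtraction) and none at 0. Their part in the result was not tested.

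In MPP2 none of the 41 genes was called by edgeR in either direction, where 3.73% of all genes were called higher and 4.17% lower; 2 members had an unadjusted p below 0.05 (Mki67 and Cdc25c), DESeq2 called 1 lower and so did edgeR on background-subtracted counts, where 3.1% of all genes were called lower. The summed level was 4314 ± 164 CPM in KO-labelled MPP2 and 4550 ± 21.9 CPM in WT MPP2 (SD, n = 3 each), and the median log2 fold change was -0.11, beside -0.07 for all genes. Without Mki67 the sums overlapped, at 2831 to 3153 CPM in KO-labelled MPP2 and 3060 to 3115 CPM in WT MPP2. Mki67 had 1284, 1319 and 1324 CPM in KO-labelled MPP2, against 1450.3, 1465 and 1454 CPM in WT MPP2. These groups did not overlap; the log2 fold change of -0.15 ± 0.07 (SE) had an adjusted p of 0.155 by edgeR, 0.0184 by DESeq2 and 0.00545 after background subtraction. Plk1 had 149, 130.1 and 149 CPM in KO-labelled MPP2, against 167, 164 and 177 CPM in WT MPP2, also without overlap and not called (-0.25 ± 0.15, SE). Top2a, Ccna2, Kif11 and Hmmr overlapped between the groups, with estimates of -0.12, 0.18, -0.18 and -0.03 and standard errors of 0.14 to 0.25. Other lists moved in these libraries: 6 mast cell and basophil markers summed to 458 to 516 CPM in KO-labelled MPP2 and 49.4 to 64.0 CPM in WT MPP2, with 4 called higher and none at 0.

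In MPP4 14 of the 41 genes rose, 0 fell and 27 were not called, where 11.4% of all genes were called higher and 6.47% lower (edgeR). The summed level was 5308 ± 166 CPM in KO-labelled MPP4 and 3540 ± 132 CPM in WT MPP4 (SD, n = 3 each). Without Mki67 the sums were 3579 to 3762 CPM in KO-labelled MPP4 and 2362 to 2519 CPM in WT MPP4. The median log2 fold change was 0.52, beside -0.08 for all genes; among genes of at least 20 CPM the medians were 0.52 for the 34 members, with 14 called higher, and 0.30 for all, with 27.4% called higher. In 24 genes each KO-labelled library lay above each WT library, which held for 16.3% of all genes.

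Aurka had 109, 120.4 and 93.1 CPM in KO-labelled MPP4, against 32.6, 37.5 and 38.3 CPM in WT MPP4. This was the largest rise of the set in this population, 2.97-fold or 1.57 ± 0.23 on the log2 scale (SE; adjusted p = 2.36e-06, edgeR), and the groups were far apart. Top2a had 310.2, 334 and 381 CPM in KO-labelled MPP4, against 161, 180.1 and 187 CPM in WT MPP4, and rose by 0.96 (adjusted p = 1.27e-06, edgeR). Ncapd2 had 206, 249.2 and 204 CPM in KO-labelled MPP4, against 92.4, 114 and 138 CPM in WT MPP4, and rose by 0.94 without overlap. Mki67 had 1592, 1519 and 1730.2 CPM in KO-labelled MPP4, against 1115, 1029 and 1127 CPM in WT MPP4; the groups were separate and the log2 fold change was 0.57 ± 0.07 (SE; adjusted p = 1.35e-08, edgeR). Mad2l1 rose by 0.95, Ccna2 by 0.91, Tpx2 by 0.82 and Ect2, not called in HSC, by 0.76. None of the 5 kinetochore genes was called, and Kif4, with 56.6, 75.5 and 86.6 CPM in KO-labelled MPP4 and 68.7, 57.5 and 71.1 CPM in WT MPP4, overlapped between the groups.

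The small rises of Plk1 (0.48), Foxm1 (0.52) and Kif11 (0.51) were not called when scaled by the median of ratios (adjusted p of 0.102 to 0.149, edgeR), which left 8 rises in all and moved the median of all genes to -0.24 in MPP4 and -0.46 in HSC, where 27 rises were left. Plk1 also lost its call without WT MPP4 replicate 1 or 2 or KO MPP4 replicate 2, Foxm1 without WT MPP4 replicate 2 and Kif11 without WT MPP4 replicate 1. After background subtraction 4 rises were called, where 4.56% of all genes were called higher, and the median of the set was 0.19, beside -0.08 for all genes; the 4 were Aurka (1.29), Top2a (0.62), Mad2l1 (0.62) and Ncapd2 (0.60), while Mki67 (0.20, adjusted p = 0.0687, edgeR) and Ccna2 (0.58) were not called. Background was estimated at only 0.221% of the Mki67 counts in KO-labelled MPP4 and 0.486% in WT MPP4. Library scaling was estimated anew on the subtracted counts, and its part in these lower estimates was not tested. Myeloid markers moved with the set, with a sum of 493 to 536 CPM in KO-labelled MPP4 and 185 to 219 CPM in WT MPP4, 6 of 8 called higher and none at 0. Erythroid markers summed to 457 to 548 CPM in KO-labelled MPP4 and 1052 to 1111 CPM in WT MPP4, with 7 of 12 called lower and none at 0. Their part was not tested.

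**Figure D3:**
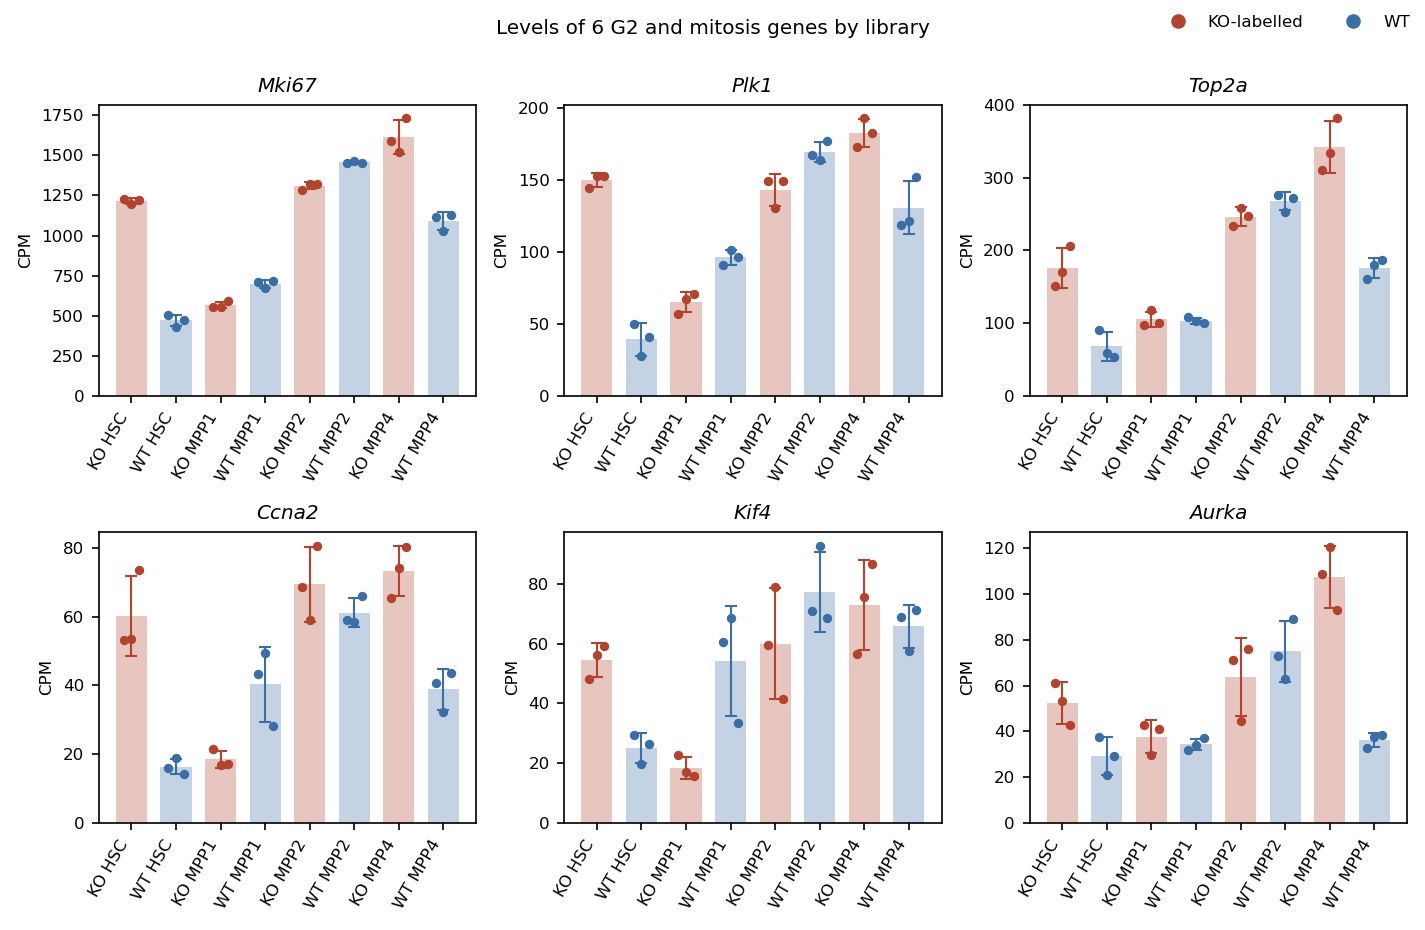
Level in CPM of Mki67, Plk1, Top2a, Ccna2, Kif4 and Aurka in the 8 groups; points are libraries, bars the mean and error bars the SD (n = 3). Plk1 averages 149.8 CPM in KO-labelled HSC and 39.2 CPM in WT HSC, and 65.1 CPM in KO-labelled MPP1 and 96.1 CPM in WT MPP1; Aurka averages 107 CPM in KO-labelled MPP4 and 36.1 CPM in WT MPP4.

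The genotype difference itself differed between populations for much of the set. A test of the interaction, whether the KO to WT difference is the same in the 4 populations, called 25 of the 41 genes, where 17.7% of all genes were called (edgeR), and 15 after background subtraction, where 6.15% were. For Mki67 the log2 fold change was 1.37 in HSC, -0.30 in MPP1, -0.15 in MPP2 and 0.57 in MPP4 (interaction adjusted p = 2.84e-18, edgeR). Plk1 had 1.94, -0.56, -0.25 and 0.48 in the same order of populations (adjusted p = 1.95e-11, edgeR), and Ccna2 had 1.87, -1.12, 0.18 and 0.91 (adjusted p = 7.17e-08, edgeR). Each of these 3 genes was called higher in HSC, lower in MPP1 and higher in MPP4, with a smaller estimate in MPP4 than in HSC. None of the 3 was called in MPP4 after background subtraction, where Mki67 was at 0.20, Plk1 at 0.12 and Ccna2 at 0.58. Foxm1 followed with 1.51, -0.22, -0.11 and 0.52 (adjusted p = 8.1e-08, edgeR), though its values in MPP1 and MPP2 were not called. Aurka was unlike them, with 0.84, 0.14, -0.23 and 1.57 (adjusted p = 0.000206, edgeR), its MPP4 value above its HSC value. The 16 genes without an interaction call included Bub1, Smc2, Cdc20, Ndc80, Kif20a and Cdc25b, and the calls on Cenpa and Ncapd2 were lost after background subtraction (adjusted p of 0.109 and 0.199, edgeR).

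Among the WT libraries, on the deposited counts, the set was lowest in stem cells for most genes: WT HSC had the lowest mean of the 4 WT groups in 30 of the 41 genes and WT MPP1 in 10. WT MPP2 had the highest mean in 32 and WT MPP4 in 9. After background subtraction the median log2 fold change over WT HSC was 0.36 in WT MPP1, 1.24 in WT MPP2 and 1.35 in WT MPP4, so the order of MPP2 and MPP4 turned. The background took 9.63 to 9.85% of counts in WT MPP2 and 25.7% in WT MPP4. The 3 comparisons with WT HSC share its 3 libraries. In WT MPP1 9 genes were called higher than in WT HSC and 0 lower (1.97% of all genes were called higher and 1.83% lower), with a median log2 fold change of 0.30 beside -0.02 for all genes. In WT MPP2 36 were called higher and 0 lower (11.7% of all genes higher and 7.37% lower), with a median of 1.39 beside -0.16. In WT MPP4 30 were called higher and 0 lower (2.91% of all genes higher and 7.43% lower), with a median of 1.06 beside 0.05, or beside 0.17 with median-of-ratios size factors, where 34 were called. Among genes of at least 20 CPM, 9, 33 and 29 of the 34 members were called higher in WT MPP1, MPP2 and MPP4, where 4.61, 27.6 and 6.33% of all such genes were. All 41 genes were higher in each WT MPP2 library than in any WT HSC library, which held for 19.8% of all genes, and 34 were so in WT MPP4, against 11.7%.

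Mki67 averaged 470.1 ± 37.01 CPM in WT HSC, 697 ± 23.7 CPM in WT MPP1, 1456 ± 7.49 CPM in WT MPP2 and 1091 ± 53.3 CPM in WT MPP4 (SD, n = 3 each). These 4 groups do not overlap, in the order HSC, MPP1, MPP4 and MPP2, with log2 fold changes over WT HSC of 0.57, 1.21 and 1.63 for MPP1, MPP4 and MPP2, each called. After background subtraction these were 0.62, 1.40 and 1.32, so that MPP4 no longer lay below MPP2. Top2a averaged 68.00 ± 20.01, 103 ± 4.17, 267 ± 12.3 and 176 ± 13.4 CPM in WT HSC, MPP1, MPP2 and MPP4, which keeps that order also after background subtraction. Its MPP1 call was lost without WT HSC replicate 2 or 3 (adjusted p of 0.083 and 0.116, edgeR). Plk1 averaged 39.2 ± 11.2, 96.1 ± 5.19, 169 ± 7.14 and 131 ± 18.6 CPM in the same groups and rose by 1.30 already in WT MPP1 over WT HSC. Hmmr and Ccna2 also rose in WT MPP1, by 1.30 and 1.29, whereas Foxm1 (-0.08 ± 0.16, SE), Ncapd2 (-0.04 ± 0.17) and Aurka (0.24 ± 0.24) were not called there and rose in WT MPP2 by 1.29, 1.05 and 1.36. Aurka was not called in WT MPP4 (0.31 ± 0.24, SE). The 5 genes not called in WT MPP2 were Birc5, Ccnb2, Cdc20, Cdc25b and Kif20a. After background subtraction 10, 30 and 32 genes were called higher in WT MPP1, MPP2 and MPP4, where 2.68, 6.54 and 4.37% of all genes were. Cell type markers moved between these groups too. Stem cell markers summed to 3903 to 4139 CPM in WT MPP1, 1999 to 2184 CPM in WT MPP2 and 1136 to 1208 CPM in WT MPP4, against 4161 to 4302 CPM in WT HSC, with 4, 7 and 6 of 7 called lower and Hoxb5 at 0. Myeloid markers in WT MPP2 summed to 2109 to 2246 CPM, against 159.6 to 183 CPM in WT HSC (7 of 8 called higher, none at 0), and lymphoid-primed markers to 3442 to 3691 CPM, against 177 to 191 CPM (6 of 6 tested higher, Rag1 and Rag2 at 0). Erythroid markers summed to 920.4 to 956 CPM in WT MPP1 and 1052 to 1111 CPM in WT MPP4, against 205 to 209 CPM in WT HSC (11 of 12 called higher in each, none at 0). Their part in these differences was not tested.

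The KO-labelled libraries gave another order. KO-labelled MPP1 had the lowest mean of the 4 KO-labelled groups in 40 of the 41 genes, the exception being Ect2, lowest in KO-labelled HSC. KO-labelled MPP4 had the highest in 32, and the highest of all 8 groups in 30. These comparisons were added after the values were seen, and the 3 share the KO-labelled HSC libraries with each other and with the genotype comparison in HSC. In KO-labelled MPP1 27 genes were called lower than in KO-labelled HSC and 0 higher (12.6% of all genes were called higher and 7.49% lower), with a median log2 fold change of -0.89 beside 0.15 for all genes. In KO-labelled MPP2 3 were called higher, Ect2, Smc4 and Top2a, and 0 lower (10.7% of all genes higher and 7.22% lower), with 5 called without KO MPP2 replicate 2 and Top2a not called without KO HSC replicate 1 (adjusted p = 0.0907, edgeR). These 3 do not exceed the share of all genes called higher, and the median was 0.21 beside 0.15 for all genes. In KO-labelled MPP4 19 were called higher and 0 lower (17.6% of all genes higher and 12.2% lower), with a median of 0.49 beside 0.18. Among genes of at least 20 CPM, 26 of the 34 members were called lower in KO-labelled MPP1, where 17.8% of all such genes were, and 18 higher in KO-labelled MPP4, where 14.8% were. Foxm1 averaged 163 ± 12.3 CPM in KO-labelled HSC, 46.3 ± 4.78 CPM in KO-labelled MPP1, 129 ± 15.7 CPM in KO-labelled MPP2 and 146 ± 15.5 CPM in KO-labelled MPP4 (SD, n = 3 each), and its MPP1 level was 0.285-fold that of HSC. Ect2 averaged 28.7 ± 5.21, 34.4 ± 7.23, 81.98 ± 15.05 and 88.6 ± 12.02 CPM in the same groups, with log2 fold changes over KO-labelled HSC of 1.51 ± 0.24 in MPP2 and 1.62 ± 0.24 in MPP4 (SE). After background subtraction 15 genes were called lower in KO-labelled MPP1, where 2.65% of all genes were, and 5 and 25 higher in KO-labelled MPP2 and MPP4, where 4.98 and 3.97% of all genes were. Lymphoid-primed markers summed to 1234 to 1342 CPM in KO-labelled MPP1, 9877 to 10393 CPM in MPP2 and 1750.1 to 1933 CPM in MPP4, against 97.9 to 128 CPM in KO-labelled HSC (6, 6 and 5 of 6 tested called higher, Rag1 and Rag2 at 0). Stem cell markers summed to 5479 to 5816, 2408 to 2531 and 1963 to 2091 CPM in the same 3 groups, against 8596 to 8835 CPM in KO-labelled HSC (5, 7 and 7 of 7 called lower, 1 higher in MPP1, Hoxb5 at 0). Myeloid markers summed to 150.4 to 167, 2237 to 2322 and 493 to 536 CPM, against 74.7 to 86.6 CPM in KO-labelled HSC (1, 8 and 6 of 8 called higher, none at 0). Their part was not tested.

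**Figure D4:**
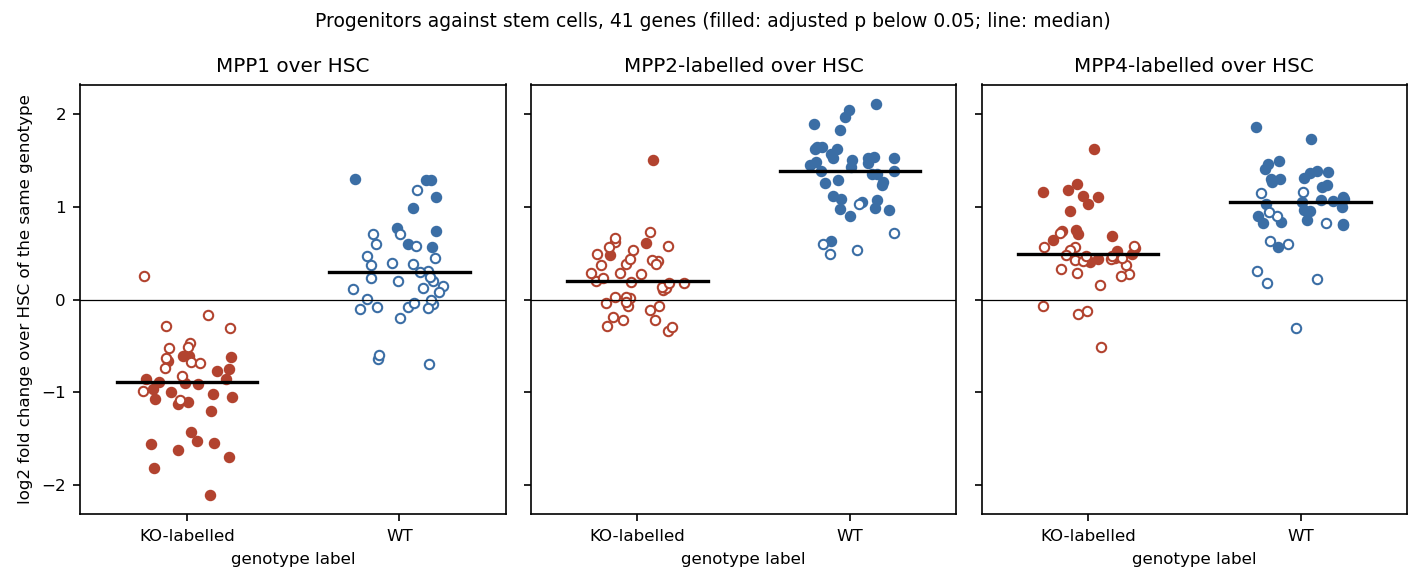
Log2 fold change over HSC of the same genotype label for the 41 genes in MPP1, MPP2 and MPP4, KO-labelled libraries left and WT right; filled points had an adjusted p below 0.05 and the line is the median. The medians are -0.89 for KO-labelled and 0.30 for WT in MPP1, 0.21 for KO-labelled and 1.39 for WT in MPP2, and 0.49 for KO-labelled and 1.06 for WT in MPP4.

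Other genes of the pathway were counted in lists that hold none of the 42. Their counts are read against the shares of all genes called, which were 18.3% higher in HSC, 8.71% higher and 4.9% lower in MPP1, 3.73% higher and 4.17% lower in MPP2 and 11.4% higher in MPP4, with medians over all genes of -0.31, -0.10, -0.07 and -0.08. Of 54 further genes of G2 and mitosis, 53 were tested; in KO-labelled against WT HSC 34 rose and 0 fell, with a median log2 fold change of 0.94, and in MPP1 1 rose and 9 fell (median -0.40). In MPP2 1 rose and 1 fell (median -0.08), and in MPP4 15 rose and 0 fell (median 0.60). Cit, the citron kinase of the contractile ring, averaged 264 CPM in KO-labelled HSC and 117 CPM in WT HSC and rose by 1.18 ± 0.12 (log2 fold change, SE; adjusted p = 1.45e-10, edgeR). Ckap2l, a spindle protein, averaged 97.5 CPM in KO-labelled HSC and 26.4 CPM in WT HSC (1.88 ± 0.21). In MPP1, Cks2, a small partner of Cdk1, fell to 5.95 CPM in KO-labelled MPP1, against 19.6 CPM in WT MPP1 (-1.72 ± 0.42, SE; adjusted p = 0.00328, edgeR), while Bora, the activator of Aurora A, averaged 87.2 CPM in KO-labelled MPP1 and 58.03 CPM in WT MPP1 and rose by 0.59 ± 0.16, a call that was lost after background subtraction. Wee1, the kinase that holds Cdk1 inactive, was listed at 0 throughout, and as for Prc1 it is not known whether the counting step left it out. After background subtraction the counts of rises and falls were 15 and 0 in HSC, where 4.6% of all genes were called higher, 0 and 14 in MPP1, where 2.82% were called lower, 0 and 0 in MPP2, and 3 and 0 in MPP4, where 4.56% were called higher.

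Of 16 genes for regulators of this transcription (DREAM and MuvB subunits, E2F, NF-Y and p53 genes), 11 rose and 0 fell in HSC, 2 rose and 0 fell in MPP1, 0 were called in MPP2, and 7 rose and 0 fell in MPP4, with medians of 0.52, 0.16, 0.14 and 0.45. The 2 in MPP1 are near the share of all genes. Nfya, a subunit of the factor that binds CCAAT, averaged 414 CPM in KO-labelled HSC and 189.7 CPM in WT HSC (1.12 ± 0.11 log2, SE; adjusted p = 7.94e-11, edgeR), and 306 CPM in KO-labelled MPP1 and 181 CPM in WT MPP1 (0.76 ± 0.11). Nfya rose in MPP1, where members of the set fell, and its part in that fall was not tested. Of 35 DNA replication genes, 25 rose and 0 fell in HSC, 0 rose and 1 fell in MPP1, 0 were called in MPP2, and 12 rose and 0 fell in MPP4, with medians of 0.91, -0.04, 0.11 and 0.56. Mcm5, a helicase subunit, averaged 252 CPM in KO-labelled HSC and 90.9 CPM in WT HSC and rose by 1.47 ± 0.14 (log2 fold change, SE), and Cdc6, the loader of that helicase, fell to 16.8 CPM in KO-labelled MPP1, against 36.1 CPM in WT MPP1. After background subtraction, of 15 tested regulators 5 rose in HSC, 1 rose and 1 fell in MPP1 (median -0.06) and 0 rose in MPP4. Of 34 replication genes 8 rose in HSC, 3 fell in MPP1 (median -0.33) and 2 rose in MPP4. Of all genes, 4.6% were then called higher in HSC, 2.82% lower in MPP1 and 4.56% higher in MPP4. The median of all genes in MPP1 was -0.08. The 2 replication genes in MPP4 are near the share of all genes.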

How the data were processed

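RNA of 24 sorted mouse libraries (8 groups of 3) was extracted with the miRNeasy Micro Kit and sequenced from NEBNext Ultra II libraries, per the labels' protocols. The authors deposited 1 table of raw counts per gene, with no normalization. The submitters' processing notes name the mm39 build, SAMtools 1.12 and DESeq2 without giving their role; aligner, counter, annotation and strand setting are not given in the sources used here.

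Groups came from the labels, and 8 comparisons were fitted in edgeR 4.0.16 (R 4.3.3, limma 3.58.1) by quasi-likelihood over all 24 libraries (common biological coefficient of variation 0.393, with 16 degrees of freedom left), with filterByExpr leaving 21964 of 56748 genes, trimmed mean of M-values scaling and Benjamini-Hochberg adjustment over all genes tested (threshold 0.05). The standard error of a log2 fold change is its size divided by the square root of F. The background was estimated from receptor genes as counts per base of gene span on the GRCm38 annotation, which matched 52073 of 56748 gene IDs (91.76%), and subtracted in proportion to each gene's span, leaving 18575 genes. Scaling factors were then estimated anew on the subtracted counts. Alternatives were median-of-ratios scaling, no filter, DESeq2 1.42.0, a fit of the libraries compared alone, a replicate block, background subtraction and 24 fits that each leave out 1 library. Library totals of 2540511 to 3807003 counts limit the precision of members with few counts. Only the edgeR fit was tested on simulated counts, for KO-labelled against WT HSC and at a lower spread than these data showed. The other steps were not simulated.

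Values in every library are given for the first gene of each role, for the genes of smallest p in each comparison and for called genes that go against the rest; Mad2l1, Ect2 and some others were added after their values were seen. The members and lists were chosen with earlier results of these data known.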

Additional observations from a re-analysis of the deposited data

Results flagged for a closer look

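For 12 of the genes named with values in every library, the KO to WT difference was not the same in HSC, MPP1, MPP2 and MPP4 by a test of the interaction (edgeR's quasi-likelihood test, adjusted over all genes). The adjusted p was 2.84e-18 for Mki67, 1.95e-11 for Plk1, 7.17e-08 for Ccna2, 8.1e-08 for Foxm1, 8.39e-08 for Top2a and 1.14e-07 for Kif11. It was 2.49e-06 for Hmmr, 4.35e-06 for Kif4, 0.000206 for Aurka, 0.00107 for Anln, 0.00331 for Cenpa and 0.0047 for Ncapd2. Of these, Cenpa and Ncapd2 had no interaction call after background subtraction.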

How the results depend on the processing

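Among the 15 genes named with values in every library, no call reversed under any alternative run. These 15 were followed gene by gene through the alternatives, and the other members only as counts of calls. Apart from leaving out a library, 927 values stayed on their side of the threshold, 29 lost a call and 19 gained one. With 1 library left out these numbers were 1210, 44 and 6. The direction of values not called was not compared. After background subtraction the members called were 14 higher in KO-labelled against WT HSC, 0 higher in MPP1, 1 lower in MPP2, 4 higher in MPP4, 15 for the interaction, 15 lower in KO-labelled MPP1 against KO-labelled HSC and 5 higher in KO-labelled MPP2 against it. Median-of-ratios size factors gave 0 higher in MPP1, 8 higher in MPP4 and 5 higher in KO-labelled MPP2 against HSC. DESeq2 gave 11 lower in MPP1, 1 lower in MPP2, 9 higher in MPP4 and 6 higher in KO-labelled MPP2 against HSC. Calls over all genes, in either direction, moved too. In MPP1 they were 2988 of 21964 in the main fit, 2721 of 21964 by median-of-ratios and 3335 of 21538 by DESeq2. In MPP2 these numbers were 1735, 1721 and 2192 (of 20686 by DESeq2), and in MPP4 3926, 3448 and 4254. For KO-labelled MPP2 against HSC they were 3936, 3960 and 4519. Without the filter 0 were higher in MPP1, where 2918 of 40398 genes were called in either direction. With only the libraries compared 0 were higher in MPP1 (4069 of 17247 genes called) and 1 lower in MPP2 (1837 of 15454). The cause of these moves was not tested.

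With each library left out in turn, KO-labelled against WT libraries gave 27 to 30 members higher in HSC, 0 to 1 higher and 3 to 7 lower in MPP1 (3 without WT MPP1 replicate 2), 0 in MPP2 and 10 to 14 higher in MPP4, and the interaction 22 to 25. Against WT HSC, the WT groups MPP1, MPP2 and MPP4 gave 6 to 9, 33 to 36 and 25 to 31 higher. KO-labelled MPP1 against KO-labelled HSC gave 24 to 27 lower, and MPP2 and MPP4 gave 2 to 5 (5 without KO MPP2 replicate 2) and 13 to 17 higher, against 19 with all libraries. Calls over all genes were not counted for these fits.

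Deviations from the group means of same-numbered KO-labelled and WT libraries had correlations of -0.0048 to 0.0163. Values so near 0, taken over many genes of low count, cannot show whether the numbers pair them. A replicate block gave 30 members higher in HSC, 1 higher and 8 lower in MPP1, 0 in MPP2, 15 higher in MPP4 and 26 for the interaction. Over all 21964 genes it called, in either direction, 9306 in HSC, 2960 in MPP1, 1681 in MPP2, 3857 in MPP4 and 3709 for the interaction.

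Members with few counts, such as Birc5 with 9 to 48, limit what a missed call can show.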
